A study of Mus musculus with 3 samples.

Results

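The genes described here were Egfr, Dlx1, Dlx2, Insm1, Hes6, Ccnd2, Stmn1 and Ptma, 8 of the 16178 genes measured. They were chosen by name as genes tied to stem-cell activation and to the neuronal lineage, with earlier results of these data known. All 8 were detected. They were followed in 149 cells sorted singly from the subventricular zone of C57BL/6J mice, all male and of 1 genotype, with no treatment named and an age that the labels do not give. Cells that bound an antibody to the glutamate transporter GLAST were taken on a magnetic column from tissue pooled from 8 mice per experiment, and sorted into 3 plates of 43, 45 and 61 kept cells. Each plate is 1 sample, and the series title asks whether autofluorescence, light emitted by an unlabelled cell, is a marker of stem cell activation. Myelin was removed before 2 of the 3 experiments, and experiment, day and plate cannot be told apart.

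In the adult subventricular zone, stem cells that rest among astrocytes can enter the cell cycle, become transit-amplifying progenitors and give rise to neuroblasts that migrate to the olfactory bulb. Egfr, the receptor for epidermal growth factor, is known to appear as stem cells activate and stays on in transit-amplifying progenitors. Ccnd2 encodes a D-type cyclin that drives the passage from G1 to S phase in neural progenitors. Dlx1 and Dlx2 encode homeodomain factors of the ventral forebrain lineage that makes inhibitory interneurons. Insm1 encodes a zinc finger repressor of progenitors that are committed to a neuronal or endocrine fate, and Hes6 a relative of the Notch effector Hes1 that opposes it and favours neuronal differentiation. Stmn1 encodes stathmin, which takes microtubules apart, and Ptma prothymosin alpha, a small acidic nuclear protein bound to chromatin. Both are common in growing cells and are not restricted to neural ones.

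The plates held 297573, 413728 and 478504 estimated transcripts. The authors sorted the cells into 5 clusters known by number only, and marker genes gave them working names. Cluster 4, with 6 cells, resembled activated stem cells or progenitors, for which 8 of 8 markers had their highest level there. Among these were Egfr and Ccnd2. Leaving these aside, the count was 6 of 6. Neuroblast markers beyond Dlx1 and Dlx2 were sparse there, since Dcx had 3 transcripts and Sp9 2, and Tubb3, Cd24a, Stmn2 and Sp8 had 0. All 6 endothelial or mural markers were also at 0 in cluster 4. Cluster 3, with 30 cells, was like quiescent stem cells or astrocytes, clusters 2 and 0, with 35 and 42 cells, were oligodendrocyte-like, and cluster 1, with 36 cells, was microglia-like. Plate 1 held 5 cells of cluster 4, plate 2 held 1 and plate 3 held 0 of 61. Because the clusters were drawn from the same transcripts, levels across clusters are descriptions without a test, given as CPM, a scale on which the estimated transcripts of a cell or a group add up to 1000000, with no correction for gene length.

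The 8 genes split into 6 that were concentrated in cluster 4 and 2 that were not. Cluster 4 held 8.47% of all transcripts. It held 95.8% of the transcripts of Dlx1, 91.5% of Ccnd2, 87.3% of Dlx2, 77.8% of Hes6, 75.0% of Insm1 and 74.4% of Egfr. For Ptma and Stmn1 the shares were 19.3% and 13.8%. All 8 had their highest summed level in cluster 4, against 27.8% of the 13898 genes detected in any cell. The genes were chosen with earlier results known and the clusters drawn from these transcripts, so this count is a description only. A cell of cluster 4 had a median of 17377 transcripts, against 4192 in cluster 3, 8615 in cluster 2, 9530 in cluster 0 and 3455 in cluster 1. Depth bears on shares of cells, so for some of them the share that thinning each cell to 1000 molecular identifiers would leave is given too.

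**Figure D1:**
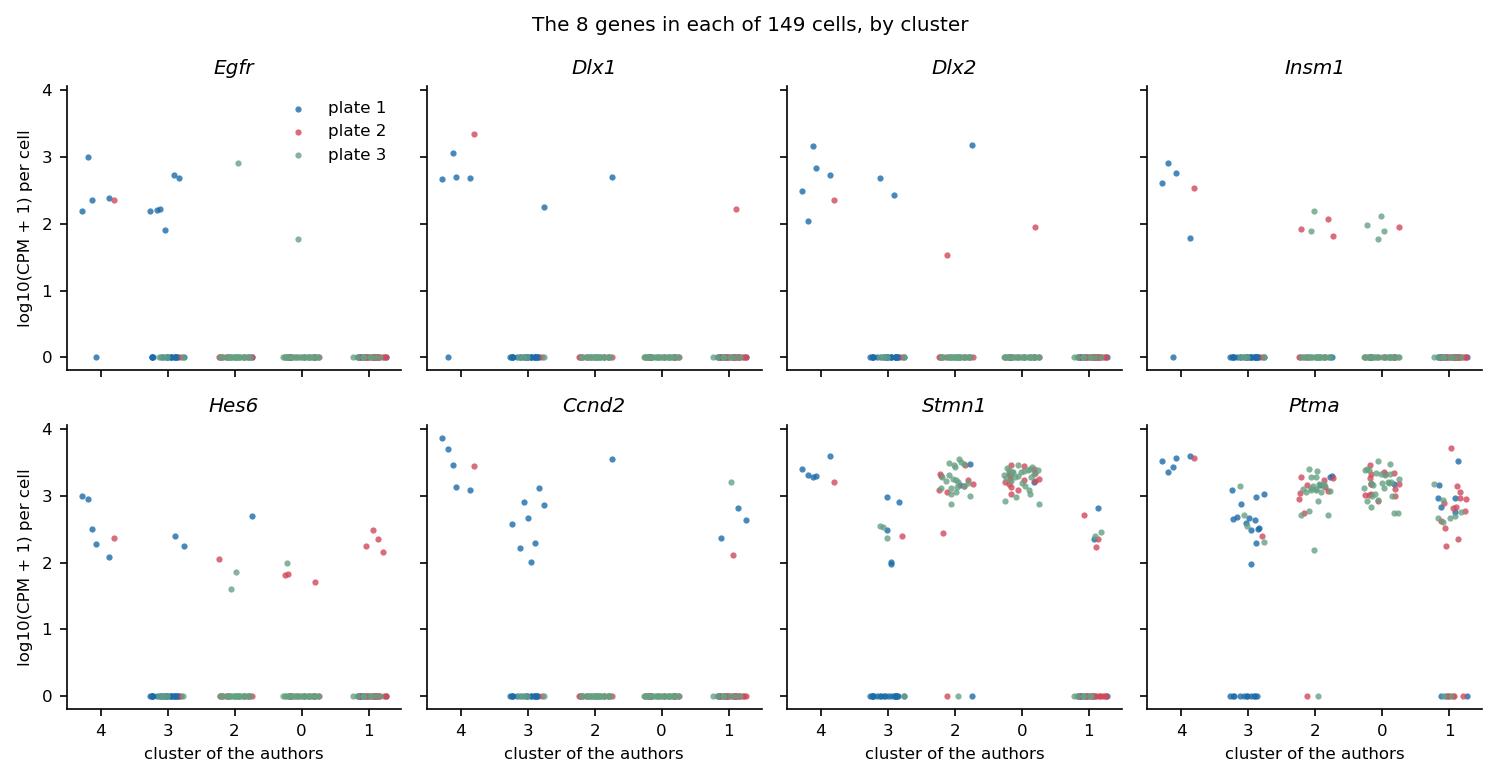
Level of each gene in each of 149 cells as log10(CPM + 1), with the authors' clusters from left to right as 4, 3, 2, 0 and 1 and points coloured by plate. Dlx1, Dlx2, Insm1, Hes6, Egfr and Ccnd2 were detected mainly in the 6 cells of cluster 4, while Stmn1 and Ptma were also detected in nearly all cells of clusters 2 and 0.

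Egfr, the growth factor receptor, stood at 318 CPM in cluster 4 and 57.3 CPM in cluster 3, a ratio of 5.55 and the smallest such ratio of the 7 genes detected in cluster 3. The gene lies on chromosome 11 at 16752203-16918158 on the plus strand (GRCm38, GENCODE M21, as for the other genes). The 6 cells of cluster 4, given throughout in the order of wells A8, A9, B3, B7 and C1 of plate 1 and D17 of plate 2, had 18.0, 4.00, 5.00, 3.00 and 0 transcripts on plate 1 and 2.00 on plate 2. A8 thus held 18.0 of the 32.0 in all. In cluster 3, 6 of 30 cells had the transcript, all of them on plate 1. Clusters 2 and 0 had 1 transcript each, and the 36 cells of cluster 1 had 0, which allows a share of cells of up to 8.33%. On plate 1 the share of cluster 3 cells with Egfr was 24.0% (6 of 25, exact 95% interval 9.36 to 45.1%) against 0 of 9 cells of the microglia-like cluster, which allows up to 33.3%, at median depths of 4114 and 3497 transcripts. These 9 cells are too few to set a background for Egfr on that plate. Over all plates the share was 20.0% in cluster 3 (6 of 30, 7.71 to 38.6%), against 0 of 36 in cluster 1. After thinning, the expected share in cluster 3 was 5.74% on plate 1 and 4.78% over all plates. Such intervals cover counting error only.

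Ccnd2, the cyclin gene on chromosome 6 (127125162-127152193, minus strand), reached 3622 CPM in cluster 4, with 92.0, 20.0, 63.5, 145 and 21.1 transcripts in the cells of plate 1 and 24.1 in the cell of plate 2. All 6 cells carried it, and the lowest of them, at 1208 CPM, lay above the median of 0 in every other cluster, though 3 single cells elsewhere reached 1294 to 3516 CPM. Cluster 3 had 134 CPM, cluster 1 47.2, cluster 2 19.6 and cluster 0 0 in 42 cells, which allows up to 6.70 CPM. The cluster 3 level rested on plate 1, where 32.0% of its cells had a transcript (8 of 25), but so had 33.3% of the microglia-like cells (3 of 9). After thinning, the expected shares were 12.7% and 14.7%. On plates 2 and 3, which held 1 cell of cluster 4 between them, 0 of 5 cells of cluster 3 and 2 of 27 of cluster 1 had it. On plate 1 the share of cluster 3 cells with Ccnd2 was thus no higher than that of microglia-like cells. The exact intervals were 14.9 to 53.5% and 7.49 to 70.1%, and 9 cells are too few to set a background for Ccnd2. Summed levels on plate 1 were 161 CPM in cluster 3 (21.0 transcripts) and 101 CPM in cluster 1 (3 transcripts).

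Dlx1 and Dlx2 lie on chromosome 2 at 71528113-71533981 on the plus strand and 71543408-71546754 on the minus strand, with their ends 9.43 kb apart. Both stood far above the other clusters in cluster 4, at 686 and 617 CPM. Dlx1 had 0, 8.01, 25.1, 9.01 and 8.01 transcripts in the 5 cells of plate 1 and 19.0 in the cell of plate 2. Dlx2 had 2.00, 9.01, 32.1, 6.00 and 11 on plate 1 and 2.00 on plate 2. The 2 genes did not keep 1 ratio from cell to cell: the plate 2 cell, D17, had 19.0 of Dlx1 beside 2.00 of Dlx2, and A8 had 0 of Dlx1 beside 2.00 of Dlx2. Dlx1as, an antisense gene that overlaps Dlx1, had 0 transcripts. Over all 149 cells Pearson's r between the pair on a log scale was 0.785, the highest among the 28 pairs of the 8 genes, over points that share depth and of which 6 hold most of the transcripts.

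The promoter windows of Dlx1 and Dlx2 are shown because the pair shares a locus and most of its cells, and that of Hes6 because it encodes a basic helix-loop-helix factor. Sequences are from RefSeq on GRCm38.p6, each of 300 bases around a transcript start, at chr2:71529195-71529494 on the plus strand, chr2:71546705-71547004 on the minus strand and chr1:91413989-91414288 on the minus strand. Capitals mark matches to CANNTG, the E-box letters read by many basic helix-loop-helix factors, which are the same on both strands.
Dlx1: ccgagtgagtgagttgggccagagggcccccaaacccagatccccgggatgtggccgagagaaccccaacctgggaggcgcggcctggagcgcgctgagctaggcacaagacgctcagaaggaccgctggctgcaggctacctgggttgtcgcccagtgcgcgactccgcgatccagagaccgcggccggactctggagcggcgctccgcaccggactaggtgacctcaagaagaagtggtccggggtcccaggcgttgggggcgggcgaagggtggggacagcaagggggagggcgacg
Dlx2: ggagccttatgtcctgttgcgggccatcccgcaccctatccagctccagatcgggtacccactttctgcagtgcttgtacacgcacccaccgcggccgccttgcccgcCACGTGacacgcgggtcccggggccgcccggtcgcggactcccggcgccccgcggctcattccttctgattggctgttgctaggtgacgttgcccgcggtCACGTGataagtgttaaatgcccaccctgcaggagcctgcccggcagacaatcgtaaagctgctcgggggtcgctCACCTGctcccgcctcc
Hes6: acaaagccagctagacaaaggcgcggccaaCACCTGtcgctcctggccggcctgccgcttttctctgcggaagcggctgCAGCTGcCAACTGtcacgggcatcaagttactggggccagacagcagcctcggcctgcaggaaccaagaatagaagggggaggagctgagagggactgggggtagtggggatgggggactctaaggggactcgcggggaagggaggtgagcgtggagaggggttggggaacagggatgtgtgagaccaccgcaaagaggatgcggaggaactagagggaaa
The Dlx1 window had 0 matches, Dlx2 had 3 and Hes6 had 3, of which 1 was CAGCTG, a form that CANNTG includes. The Dlx1 window lies wholly inside the gene span given above, downstream of its start at 71528113. Its 0 matches thus do not cover the sequence at that start, while the printed windows of Dlx2 and Hes6 hold the starts of their spans. RefSeq gives Hes6 a second window, at chr1:91413173-91413472 on the minus strand and not printed, which had 1 match, also CAGCTG. Of 32851 mouse promoter windows of this length, 72.3% held CANNTG and 16.3% held CAGCTG, so matches of this kind are common and describe letters only. Promoters were matched for 5 of the 8 genes; those of Insm1, Ccnd2 and Stmn1 were not used here.

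Insm1, the repressor of committed progenitors on chromosome 2 (146221921-146225020, plus strand), stood at 358 CPM in cluster 4. Its cells held 15.0, 1, 0, 8.01 and 9.01 transcripts on plate 1 and 3.00 on plate 2. Outside cluster 4 it was detected only in the oligodendrocyte-like clusters, in 10 of 77 cells at 1 or 2 transcripts each and 14.9 CPM. Cluster 3 had 0 in 30 cells, which allows a share of up to 10.0%, and cluster 1 had 0 in 36. After thinning, the expected share in clusters 0 and 2 was 1.23%.

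Hes6, which opposes Hes1 and lies on chromosome 1 (91411483-91414038, minus strand), had 487 CPM in cluster 4, with 16.0, 2.00, 7.01, 19.0 and 3.00 transcripts on plate 1 and 2.00 on plate 2. All 6 cells carried it. Elsewhere its level lay between 8.94 and 31.4 CPM, highest in the microglia-like cluster, where 4 cells of plate 2 had 1 transcript each. The 12.7 CPM of cluster 3 rested on 2 transcripts, both on plate 1. There the 9 cells of cluster 1 had 0, which allows up to 101 CPM. These counts thus set no background for Hes6 in cluster 3 on the same plate.

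Stmn1, on chromosome 4 (134468320-134473843, plus strand), and Ptma, on chromosome 1 (86526726-86530712, plus strand), followed a different order. Stathmin stood at 2374 CPM in cluster 4, 1973 in cluster 0, 1632 in cluster 2, 108 in cluster 3 and 62.9 in cluster 1. Per plate, cluster 4 had 2447 and 1607 CPM, and cluster 0 ranged from 1603 to 2002 and cluster 2 from 1474 to 1734, so these 3 clusters overlapped. Prothymosin alpha stood at 3176 CPM in cluster 4, 1570 in cluster 0, 1422 in cluster 2, 582 in cluster 1 and 325 in cluster 3. Its plate values in cluster 4, 3128 and 3681 CPM, did not overlap those of cluster 0 (1505 to 1580) or cluster 2 (1367 to 1606), and those of clusters 0 and 2 overlapped each other.

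The difference between oligodendrocyte-like cells and the other 2 large types held on each plate. Stmn1 in clusters 0 and 2 together was 20.4, 27.5 and 12.4 times its level in clusters 1 and 3 on plates 1, 2 and 3. For Ptma the ratios were 4.04, 2.98 and 2.96. The smallest Stmn1 ratio thus exceeded the largest Ptma ratio. Within cluster 4 the 6 cells ranged from 1607 to 3948 CPM for Stmn1 and from 2269 to 3887 CPM for Ptma. Reads of near-identical copies of a gene, such as processed pseudogenes, may be split in counting, so the levels of Stmn1 and Ptma are uncertain to that extent.

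Co-detection was nearly complete in cluster 4. The cells in wells A9 and B7 of plate 1 and D17 of plate 2 carried all 8 genes, A8 lacked only Dlx1, B3 only Insm1 and C1 only Egfr, for a median of 7.5 genes per cell. The medians were 1 in cluster 3 (range 0 to 4), 2 in cluster 2 (0 to 5), 2 in cluster 0 (2 to 4) and 1 in cluster 1 (0 to 3), and in the oligodendrocyte-like cells the 2 were mostly Stmn1 and Ptma, which 87 cells outside cluster 4 carried together. Thinned to 1000 identifiers per cell, the expected median in cluster 4 was 4.64.

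**Figure D2:**
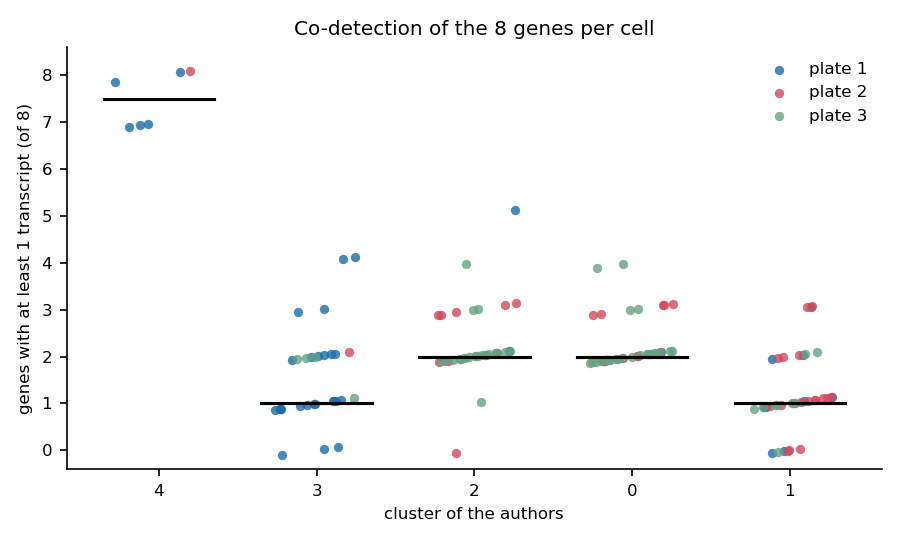
Number of the 8 genes with at least 1 transcript in each cell, by the authors' cluster, with points coloured by plate and spread slightly to part them and a bar at the median. The 6 cells of cluster 4 carried 7 or 8 genes, and no other cell carried more than 5.

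Pairs of the lineage genes Egfr, Dlx1, Dlx2, Insm1 and Hes6 were found in 4 to 6 of the 6 cells of cluster 4 and in 0 to 2 of the 143 other cells. Egfr and Dlx1 were together in 4 cells of cluster 4 and 0 others, Egfr and Dlx2 in 5 and 2, Egfr and Hes6 in 5 and 0, and Egfr and Insm1 in 4 and 1. Dlx1 and Hes6 were together in 5 cells of cluster 4 and 2 others, as were Insm1 and Hes6. Dlx2 and Hes6 were together in all 6 cells and in 1 other, Dlx1 and Dlx2 in 5 and 1, and Insm1 was with neither Dlx gene outside cluster 4. In cluster 4 Egfr had 2 to 18 transcripts in the cells that carried it, of which 4 had Dlx1 and 5 had Dlx2.

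The mix within cluster 4 varied from cell to cell. A8 had the most Egfr (993 CPM) and Insm1 (827 CPM) and the fewest Dlx transcripts of the 6. B3 had the most Dlx2 (1455 CPM) and no Insm1. B7 had the most Ccnd2 (7430 CPM) and Hes6 (979 CPM). A9 had the most Stmn1 and Ptma, at 3948 and 3887 CPM, with the lowest Ccnd2 of the group. The authors' phase calls put A8, A9, B3 and B7 in G2M and C1 and D17 in S, so no cell of cluster 4 was called G0 or G1.

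By phase, the summed Ccnd2 level in cluster 4 was 4196 CPM in the 4 cells called G2M and 1840 CPM in the 2 called S. Single cells ranged from 1208 to 7430 CPM in G2M and from 1333 to 2758 CPM in S, so the phases overlapped. Of all 149 cells, 118 were called G0, 20 G1, 4 S and 7 G2M. Outside cluster 4 only 2 cells were called S and 3 G2M, in wells A1, A2, A13 and B2 of plate 1 and A16 of plate 2. B2 alone carried several of the lineage genes. A1, A2 and A13 had 0 transcripts of all but Ptma, of which they had 3.00, 3.00 and 0, and A16 had 1 of Dlx1, 1 of Stmn1 and 4.00 of Ptma. In the 118 cells called G0, all outside cluster 4, the summed levels were 11.1 CPM for Egfr, 25.2 for Ccnd2, 1480 for Stmn1 and 1289 for Ptma.

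Cells outside cluster 4 that carried at least 2 of Egfr, Dlx1, Dlx2, Insm1 and Hes6 numbered 7 of 143, 4 on plate 1 and 3 on plate 3. They were 3 of 30 cells in cluster 3 (10.0%, exact 95% interval 2.11 to 26.5%), 2 of 35 in cluster 2, 2 of 42 in cluster 0 and 0 of 36 in the microglia-like cluster, which allows up to 8.33%. At least 1 such gene was found in 8 of 30 cells of cluster 3 (26.7%) and in 5 of 36 cells of cluster 1 (13.9%, 4.67 to 29.5%). In the oligodendrocyte-like clusters it was 10 of 35 cells in cluster 2 (28.6%) and 9 of 42 in cluster 0 (21.4%). The share in cluster 3 was thus not above that in cluster 2. None of the 7 had 2 or more transcripts of 2 of these genes, and after thinning 0.933 cells of this kind would be expected. Over all plates the share of cells with at least 2 in cluster 3 lies above the limit set by the microglia-like cells. The exact intervals of clusters 3 and 1 overlap for both counts. All 3 such cells of cluster 3 were on plate 1, which held 9 of the 36 microglia-like cells. A count of 0 in 9 cells allows up to 33.3%, so these are too few to set a background on that plate.

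B2 of plate 1 was the cell most like cluster 4 among them. The authors placed it in cluster 2 and called it G2M. It had 1993 transcripts, among them 1 of Dlx1, 3.00 of Dlx2, 1 of Hes6, 7.01 of Ccnd2 and 4.00 of Ptma, with 0 of Egfr, Insm1 and Stmn1. Its Ccnd2 level of 3516 CPM lay within the range of cluster 4. It also had 5.00 transcripts of Mki67, a proliferation antigen. Its oligodendrocyte markers summed to 1004 CPM, the lowest of the 35 cells of cluster 2, where the median was 78518 CPM, and Mbp, myelin basic protein, was at 0. Its markers of quiescent stem cells or astrocytes summed to 16069 CPM, the highest in that cluster. The markers thus go against the cluster in which this cell was placed, and without it cluster 2 had 0 transcripts of Ccnd2 and Dlx1 and 1 of Dlx2.

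The carriers in cluster 3, wells B6, C4 and C5 of plate 1, had the astroglial profile of that cluster. B6 had 1 transcript of Egfr and 3.00 of Dlx2, C4 had 2.00 of Egfr and 1 of Dlx2, and C5 had 1 of Dlx1, 1 of Hes6 and 4.00 of Ccnd2. All 3 were called G0, with Clu, a gene of astrocytes and quiescent stem cells, at 20.0 to 45.2 transcripts. A3 of plate 1, also in cluster 3 and G0, carried 1 lineage gene but 3.00 transcripts of Egfr and 8.01 of Ccnd2. It had 6.00 of Sox11 and 4.00 of Sox4, both transcription factors of young neurons. It also had 9.01 of the microglial receptor gene Csf1r. In these cells Sox4 was not particular to cluster 4, at 169 CPM there, 181 CPM in the microglia-like cluster 1 and 31.8 CPM in cluster 3. The other 3 carriers, A21, D3 and D13 of plate 3, were oligodendrocyte-like cells with 10389 to 25716 transcripts and 1 or 2 transcripts each of Insm1 with Egfr or Hes6.

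Position on the plate is given beside these counts. B2, A3, B6 and C4 lay beside or diagonal to a well of cluster 4, and C5 lay 2 wells from one. On plate 1, the 18 cells in wells that touched one had 223 CPM of Ccnd2, 74.3 of Egfr and 74.3 of Dlx2, and the 20 cells in wells that touched none had 89.9, 18.0 and 0 CPM. B2 and A3 alone held 7.01 and 8.01 of the 21.0 Ccnd2 transcripts of the touching wells. Dlx1 had 1 transcript in each set, and Hes6 had 1 in the touching wells and 2 in the others. Insm1 was at 0 transcripts in both sets. Without the wells that touched one, an alternative chosen after seeing the data, 4 cells with at least 2 lineage genes were left. B2 and B3, the cluster 4 well next to it, had barcodes that differed at 6 of their bases (capitals), and A3 and B3 at 4.
B2: CGCAaAgT
B3: GTGCaTgA
The part of neighbouring wells, of free RNA and of doublets, for which no caller was run, in these counts was not tested.

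**Figure D3:**
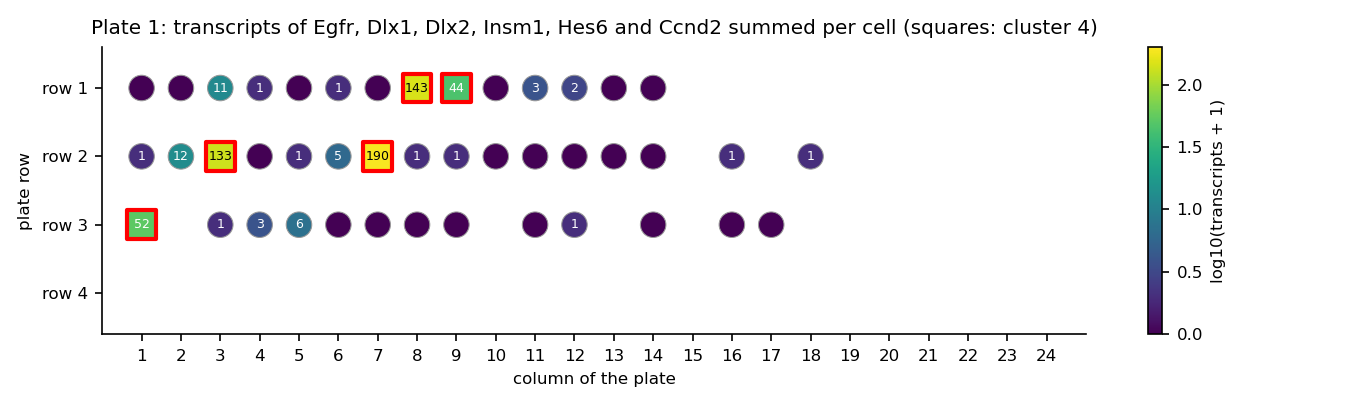
Plate 1 by row (1 to 4 stand for A to D) and column, with the summed transcripts of Egfr, Dlx1, Dlx2, Insm1, Hes6 and Ccnd2 printed in each kept cell and shown as colour on a log scale, and squares for cluster 4. The 5 squares hold most transcripts, and the cells with the next highest sums, B2 and A3, adjoin the square in row 2, column 3.

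Some of the 5 genes most like each member over the 149 cells, among 10683 genes detected in at least 5 cells, are given as a description on a log scale with no test. Genes of DNA synthesis and mitosis were among those of the lineage genes: Troap and Top2a for Egfr (r = 0.663 and 0.639), Mxd3 and Tk1 for Dlx1 (0.820 and 0.801), Cdca8 and Ccna2 for Dlx2 (0.849 and 0.820) and Rrm2 and Top2a for Ccnd2 (0.784 and 0.783). Insm1 was closest to B3gnt5 (0.754), and Ccna2 was among the genes most like Hes6 (0.732). Stmn1 stood apart, with Stmn4 (0.814), detected in 74 cells and in 0 of cluster 4, followed by Desi1, Qdpr, Ermn and Pllp. Ptma was closest to Stmn1 (0.621) and Tuba1a (0.606). Every one of the genes named for Egfr, Dlx1, Dlx2 and Ccnd2 was found in 6 to 12 cells, 5 or 6 of them in cluster 4, so these values rest on the same few, deeply covered cells.

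Other genes of the same pathways were read from whole lists. Of all 13898 genes detected, 27.8% were highest in cluster 4, and 3097 genes were highest in cluster 3. Of 13 division genes, 13 were highest in cluster 4, with Top2a at 2154 CPM and Mki67 at 1384 CPM there and 25.5 CPM each in cluster 3. Of 12 detected G1 cyclins, their kinases and inhibitors, 9 were highest in cluster 4, with Cdk4, the kinase that Ccnd2 binds, at 825 CPM against 121 in cluster 3, and with the inhibitor gene Cdkn1b at 228 against 280. Of 13 detected proneural and Notch pathway genes, 5 were highest in cluster 4 and 6 in cluster 3. Notch1, a receptor of the pathway, had 338 CPM in cluster 4 and 318 CPM in cluster 3, and Dll1, a ligand, had 159 CPM in cluster 4 and 0 transcripts in cluster 3.

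Genes of the EGF receptor family were spread over the clusters. Of 10 detected ligands, relatives and feedback genes, 1 was highest in cluster 4, Spry4, a feedback inhibitor, at 59.5 CPM against 50.9 in cluster 3. Tgfa, a ligand, had 0 transcripts in cluster 4 and 91.6 CPM in cluster 0, and Spry2 had 69.5 CPM in cluster 4 and 127 in cluster 3. Of 9 detected genes of the interneuron lineage, 5 were highest in cluster 4, among them Meis2 at 328 CPM and Gsx2 at 169 CPM, against 44.5 and 31.8 CPM in cluster 3. Dlx5 and Dlx6, the other pair of the family, had 0 transcripts in all cells.

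Among 15 stathmin, tubulin and immature neuron genes, 7 were highest in cluster 4 and 5 in cluster 0. The tubulin genes parted: Tuba1b and Tubb5 had 5332 and 2977 CPM in cluster 4 against 284 and 89.4 CPM in cluster 0, while Tuba1a had 1134 CPM in cluster 4 and 2218 CPM in cluster 0. Stmn4 had 0 transcripts in cluster 4 and 862 CPM in cluster 0. Of 12 chromatin genes of dividing cells, 11 were highest in cluster 4. The exception was Ptms, which encodes parathymosin, a relative of prothymosin alpha, at 368 CPM in cluster 4 and 439 in cluster 3. The others included Hmgn2 at 4705 CPM against 223 in cluster 3 and H2afz at 2936 against 178.

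Autofluorescence was measured apart from the transcripts, so it allows a test. The 6 cells of cluster 4 had 448, 1064, 1303, 1581 and 1324 units on plate 1 and 787 on plate 2, below the plate medians of 1839 and 2160. All 6 were thus in the low class, together with 12 other cells on plate 1 and 4 on plate 2 that were dimmer than the brightest cell of cluster 4 there. Transcripts were summed over the cells above the median of their plate (high) and over the others (low), and the 3 pairs of sums were compared with edgeR's quasi-likelihood test.

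Over all cells, 145 of 3723 genes were higher in high cells (3.89%) and 5 were lower (0.134%). Of the 8 genes 3 passed the filter on low counts, and 1 of them, Ccnd2, was lower. It had 79.9, 5.06 and 8.02 CPM in high cells of plates 1, 2 and 3, against 2100, 111 and 0 CPM in low cells, a log2 difference of -3.98 (SE 0.71, edgeR adjusted p = 0.000986). It was lower on 2 of the 3 plates, those that held cells of cluster 4. Without these cells, an alternative chosen after seeing the data, Ccnd2 failed the filter, and with no filter the difference was -0.69 (SE 0.81, adjusted p = 0.997). The call also ended without plate 2 (-3.75, adjusted p = 0.240), without the plate block (0.803) and in DESeq2 (-2.93, adjusted p = 0.822), and without plate 1 the gene failed the filter.

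Stmn1 and Ptma were not called. Stmn1 had 256, 1164 and 1568 CPM in high cells of plates 1, 2 and 3, against 1626, 1699 and 1873 CPM in low cells (log2 difference -1.05, SE 0.38, edgeR adjusted p = 0.191). Ptma had 560, 1199 and 1246 CPM in high cells, against 2031, 1560 and 1531 CPM in low cells (-0.80, SE 0.33, adjusted p = 0.318). Both were lower in high cells on 3 of 3 plates and their values in the classes did not overlap. How many of all the genes tested had such values was not counted, so this adds nothing to the test.

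**Figure D4:**
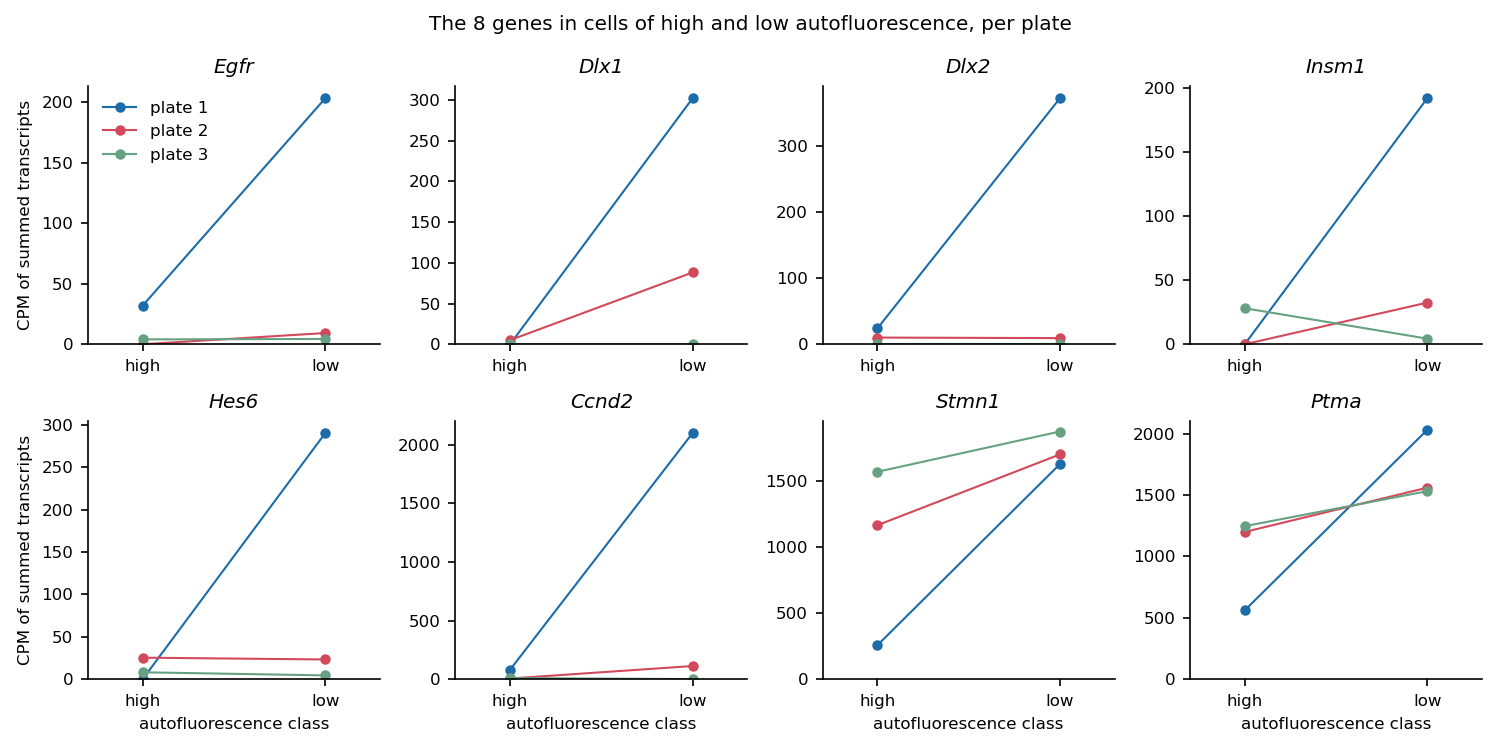
Summed level in CPM of each gene in cells of high (left) and low (right) autofluorescence, with a line for each plate and a scale that starts at 0 and differs between genes. On plate 1 all 8 genes lay lower in high cells, and on plate 3 only Stmn1 and Ptma differed by more than a few transcripts, apart from Insm1, at 7.00 transcripts in high cells and 1 in low cells.

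The 5 lineage genes failed the filter. In high cells Dlx1 had 1 transcript, against 71.1 in low cells, and Dlx2 had 5.00 against 66.1. Egfr had 5 against 38.0, Insm1 7.00 against 41.0 and Hes6 7 against 56.1. With no filter, 1.79% of 13898 genes were called higher and 0.417% lower, and Dlx1 (-5.24, SE 0.93, edgeR adjusted p = 5.03e-06), Dlx2 (-2.74, SE 0.82, 0.0385) and Stmn1 (0.0461) were among them, while Egfr (-2.21, 0.281), Hes6 (-1.99, 0.180) and Insm1 (-1.96, 0.263) were not. Dlx1 was lower on plates 1 and 2 and at 0 in both classes of plate 3. Dlx2 was lower on plate 1 only, with 10.1 CPM in high cells and 9.26 CPM in low cells of plate 2 and 0 in both classes of plate 3. Without the cells of cluster 4 and with no filter, the differences were -0.91 for Dlx1 (SE 3.08, edgeR adjusted p = 0.999) and 0.22 for Dlx2 (SE 1.63, 0.999). Outside cluster 4, high cells had 1 transcript of Dlx1, 5.00 of Dlx2, 5 of Egfr, 7.00 of Insm1 and 7 of Hes6, against 2, 4.00, 6.00, 5 and 7 in low cells. These pairs of counts differ by at most 2 transcripts.

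Outside cluster 4, Stmn1 had 1142 CPM in high cells and 1620 CPM in low cells, and Ptma 1080 and 1389 CPM. In the fit without cluster 4 their log2 differences were -0.63 (SE 0.28, edgeR adjusted p = 0.314) and -0.30 (SE 0.26, 0.768). The classes also differed in cell type: 25 of the 73 high cells and 52 of the 76 low cells belonged to clusters 0 and 2, where Stmn1 is high, and 32 and 4 to the microglia-like cluster 1. The next comparisons leave out cluster 1 or balance the clusters.

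Without cluster 1, and with the cells split anew at their own median, 10 of 2913 genes were higher (0.343%) and 1 was lower (0.0343%). That 1 gene was Ccnd2, with a log2 difference of -4.98 (SE 0.67, adjusted p = 0.00116 in edgeR), lower in high cells on 2 plates and at 0 in both classes of plate 3. Stmn1 was at -0.86 (SE 0.41, adjusted p = 0.703) and Ptma at -0.74 (SE 0.38, 0.738). All 6 cells of cluster 4 were again in the low class. Without them the filter removed Ccnd2, and edgeR called no gene (123 at an unadjusted p under 0.05). The call of Ccnd2 also ended without plate 2 (-4.56, adjusted p = 0.106), without the plate block (-5.24, 0.999) and in DESeq2 (-4.62, 0.999), and the gene failed the filter without plate 1 and with cells near the median left out.

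When cells were split within their own plate and cluster, which puts like numbers of each cluster on both sides, 0 of 3412 genes were higher and 3 were lower (0.0879%). Of the 8 genes only Stmn1 and Ptma passed the filter, and neither was called. Stmn1 was at -0.21 (SE 0.24, edgeR adjusted p = 0.925) and Ptma at -0.04 (SE 0.24, 0.998). Cells of cluster 4 then stood on both sides on plate 1, and Ccnd2 had 178 transcripts in high cells and 198 in low cells. Within clusters 0 and 2, where Stmn1 and Ptma were both well detected, 0 of 2507 genes were called by edgeR (52 at an unadjusted p under 0.05), with Stmn1 at -0.13 (SE 0.36) and Ptma at -0.00 (SE 0.34). The plate 1 pair of this fit was 1 high cell against 2 low cells, 1 of them B2, whose markers go against its cluster. That limits this fit and the difference tested below. Within cluster 1, 0 of 210 genes were called (2 unadjusted), and Ptma, the only 1 of the 8 tested, was at 0.47 (SE 0.66). The difference between these last changes was tested in 1 model, in which 0 of 623 genes were called (16 unadjusted). It was 1.18 for Stmn1 (SE 1.23, edgeR adjusted p = 0.998) and 0.38 for Ptma (SE 0.59, 0.998).

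With the filter on low counts, no gene of the 7 pathway lists was called against autofluorescence over all cells. Of 12 chromatin genes of dividing cells, 11 were tested over all cells and 0 were called by edgeR (5 unadjusted), with a median log2 difference of -0.86, against -0.04 over all 3723 genes. Of 15 stathmin, tubulin and immature neuron genes, 5 were tested and 0 called (1 unadjusted), at a median of -0.86. Without the cells of cluster 4 these 2 medians were -0.04 and -0.39, against -0.01 over 3702 genes. Within plate and cluster the medians were -0.28 and -0.47, against 0.01 over all 3412 genes. Few members of the other lists passed the filter over all cells: 1 of 14 for the EGF receptor family, 2 of 13 for the interneuron lineage, 2 of 15 for the proneural and Notch genes, 3 of 13 for the G1 cyclins and 1 of 13 for the division genes. With no filter, where 0.417% of all genes were called lower, 8 of the 13 division genes, 2 of the 12 chromatin genes and 1 of the 13 detected proneural and Notch genes were lower in high cells. Of these 3 lists 0 genes were called without the cells of cluster 4 and with no filter (edgeR, with 0, 0 and 2 at an unadjusted p under 0.05).

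Inside cluster 3 on plate 1, autofluorescence and the members were set side by side without a test, since the cells share a plate. The 6 cells with Egfr had a median of 2254 units (1173 to 3835), and the 19 without it 1798 units (548 to 3153). The cells with Egfr were also more deeply covered, with medians of 6260 and 4051 transcripts. For Ccnd2 the medians were 1829 units in the 8 cells with it and 1839 in the 17 without, and for Ptma 1872 in 14 cells and 1839 in 11. The ranges overlapped for each gene.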

How the data were processed

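SORT-seq, a plate method for single cells, marks wells with a barcode and molecules with an identifier. The deposited expression values are estimated counts that the authors derived from counts of identifiers. Inverting the collision correction, with a pool of 4096 identifiers, gave whole counts for 100% of the values above 0 in the deposited table (tolerance 1e-06). Autofluorescence is an intensity per cell in arbitrary linear units, as deposited by the authors. The authors' deposited cluster numbers, phase calls and S and G2M scores were used unchanged, with settings not given in the sources used here. Software in the submitters' processing notes was Seurat 4.1.1, BWA 0.7.15 and R 4.2.0, and the builds were mm10 and hg19, with no role for any of them. From the table of cell properties 9 columns stayed unused. The authors left out 86 of 235 wells. Kept cells had at least 579 genes and the others at most 421. Plates shared 24 to 27 well positions, and so barcodes, by design of the barcode set.

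Plates were matched to cells by the number that ends the library name. Sums of transcripts over the cells of 1 class on 1 plate, rounded, were the replicates. The main test was the quasi-likelihood F test of edgeR 4.0.16 (R 4.3.3) with a term for plate, after TMM scaling and filtering of low counts, with p-values adjusted by Benjamini and Hochberg over all genes tested at 0.05. The block is used because both sums of a pair come from the same plate. No label ties plates to separate mice, so p-values measure only the spread between these sums. The script was tested on simulated data. Some shares were also given as the exact expectation after thinning each cell to 1000 identifiers. Intervals are exact (Clopper-Pearson) at 95%, and a count of 0 allows up to 3 counts. Totals of 297573 to 478504 transcripts per plate set the precision. Cluster names rest on marker lists.

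The 8 genes, the other lists and the tests were chosen with earlier results of these data known. All 8 are named whatever their values. For each list the text gives the count over the whole list and values for some of the genes with most transcripts, and other genes named were chosen after their values were seen. Some genes are not reported here. Alternatives were RLE scaling, no filter, no block, DESeq2 1.42.0, recovered identifiers, cells near the dividing value left out and each plate left out.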

Additional observations from a re-analysis of the deposited data

Results flagged for a closer look

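Signal was found outside the cells that the report compares, in the 86 wells that the authors left out, whose median was 266 transcripts. Stmn1 had 13 transcripts there, in 10 wells with at most 3.00 each. Ptma had 18.0 transcripts, in 14 wells with at most 4.00 each. Both sums were above the 3 counts that a count of 0 allows. At 453 and 627 CPM they lay between the levels of cluster 3 and those of clusters 0 and 2. Egfr and Ccnd2 had 2 transcripts each, or 69.7 CPM each, and Dlx1, Dlx2, Insm1 and Hes6 had 0. In cluster 3 Egfr stood at 57.3 CPM and Ccnd2 at 134 CPM. The Egfr level of these wells was thus no lower than that of cluster 3, though it rests on 2 transcripts. No such well carried 2 or more of the lineage genes.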

How the results depend on the processing

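Over all cells the 150 genes called became 307 with no filter and 0 with no replicate block (207 at an unadjusted p under 0.05), and 39 (without plate 2) to 180 with a plate left out. Without cluster 1 the 11 became 7 under RLE scaling, 74 with no filter, 0 with no replicate block (67 unadjusted), 7 with cells near the dividing value left out, 0 without the cells of cluster 4 (123 unadjusted) and 0 (without plate 2) to 7 with a plate left out. Within plate and cluster the 3 became 20 under RLE, 0 with no replicate block (40 unadjusted), in DESeq2 (74) and with cells near the dividing value left out (120), and 0 (without plate 3) to 23 (without plate 1) with a plate left out. In clusters 0 and 2 the 0 became 0 to 1. Ccnd2 lost its call with no replicate block (-4.68 over all cells, -5.24 without cluster 1), which changed no other call of the 8 genes. Differences near 0 changed sign: Ptma within plate and cluster was 0.019 with no filter and -0.10 to 0.053 with a plate left out, and in clusters 0 and 2 it was 0.058 with no filter and -0.044 to 0.029. The difference between cluster 1 and clusters 0 and 2 was -0.80 to 2.89 for Stmn1 and -0.21 to 0.87 for Ptma with a plate left out, below 0 without plate 2. The cause was not tested. The median of 7.5 genes per cell of cluster 4 became 4.64 after thinning and 7 to 8 with a plate left out. The 7 carriers outside cluster 4 became 0 at 2 or more transcripts, 0.933 after thinning, 4 without wells that touch cluster 4 and 3 (without plate 1) to 7 with a plate left out. Cluster 4 has 6 cells, 5 of them on plate 1, which limits every level given for it.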
